A study of Mus musculus with 8 samples.

Results

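Among 1950708 autosomal windows of 1 kb, 504 were unmethylated in B cells and methylated in T cells of both sexes. A window was chosen when its pooled methylation level was at most 25% in both B cell files and at least 75% in both T cell files, and it needed 3 or more CpGs with 5 or more reads in all 4 files. These 504 windows, called B-only windows here, made up 0.0258% of the eligible windows. The levels that chose them are given below as a description, without a test of B against T cells. The mirror set, at most 25% in both T cell files and at least 75% in both B cell files, held 995 windows (0.0510%) and is called T-only. A further 35302 windows were at or under 25% in all 4 files.

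Whole-genome bisulfite sequencing was used on spleen lymphocytes from C57BL/6J mice, an inbred strain, aged 6 to 8 weeks, with no treatment and no engineered allele in the labels. Sex and cell type (B or T) gave 4 groups of 2 samples. The B cells were CD43-, the resting fraction, and the T cells were naive CD4+ cells sorted as CD62L hi, CD44 lo and CD25-. Each sample pooled cells over several animals. A group's 2 samples pointed to the same file, and the labels do not say if that file is a merge or a single library. No group therefore had replicates, and each cell type difference was observed once per sex. Bisulfite leaves 5-methylcytosine and 5-hydroxymethylcytosine unconverted alike, so both count as methylated here.

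Most CpGs of a mammalian genome are methylated, and the lasting exceptions are CpG-rich promoters, which stay unmethylated in nearly every cell type. Regulatory elements with few CpGs, such as enhancers and the promoters of genes restricted to a lineage, lose methylation in the cells where they are active. In B cells this is linked to factors such as EBF1, PAX5, the E proteins and PU.1, which open chromatin at genes of the B cell receptor and its signalling. No expression, chromatin or factor binding was measured in these files.

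The sequences of 6 B-only windows at the starts of B cell genes are shown as examples of the few windows near a start. A start here is that of any annotated protein-coding transcript, so it can lie inside the gene. They are those with the largest differences between cell types among the starts of listed genes. Each is the stretch of at most 300 bases with the most CpGs in its window outside annotated UTRs, on the plus strand of GRCm38, with the C and G of each CpG in capitals. The genes encode the B cell surface protein CD20 (Ms4a1), the E proteins (Tcf3), the signalling adaptor of the B cell receptor (Blnk), a signalling chain of that receptor (Cd79a), an Fc receptor-like protein of B cells (Fcrla) and an inhibitory coreceptor (Cd22).
Ms4a1 (chr19:11266377-11266676): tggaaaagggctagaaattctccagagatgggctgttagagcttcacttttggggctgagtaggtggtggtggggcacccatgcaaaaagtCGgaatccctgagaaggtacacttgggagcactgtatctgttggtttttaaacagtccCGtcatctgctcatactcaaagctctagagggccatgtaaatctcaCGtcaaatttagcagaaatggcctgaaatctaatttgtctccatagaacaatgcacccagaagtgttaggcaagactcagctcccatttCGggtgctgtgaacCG
Tcf3 (chr10:80430001-80430300): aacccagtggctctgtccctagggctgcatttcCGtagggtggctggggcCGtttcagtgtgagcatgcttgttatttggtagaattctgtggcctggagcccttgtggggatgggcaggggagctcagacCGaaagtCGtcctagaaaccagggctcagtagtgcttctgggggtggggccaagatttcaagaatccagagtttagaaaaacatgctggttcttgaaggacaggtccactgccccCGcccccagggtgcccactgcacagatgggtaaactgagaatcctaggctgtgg
Blnk (chr19:40993611-40993910): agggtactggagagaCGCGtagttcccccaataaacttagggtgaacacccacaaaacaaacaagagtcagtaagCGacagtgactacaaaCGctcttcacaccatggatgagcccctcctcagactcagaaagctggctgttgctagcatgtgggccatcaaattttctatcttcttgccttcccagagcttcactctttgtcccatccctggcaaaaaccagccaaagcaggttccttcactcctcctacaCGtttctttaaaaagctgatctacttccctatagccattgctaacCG
Cd79a (chr7:24897008-24897307): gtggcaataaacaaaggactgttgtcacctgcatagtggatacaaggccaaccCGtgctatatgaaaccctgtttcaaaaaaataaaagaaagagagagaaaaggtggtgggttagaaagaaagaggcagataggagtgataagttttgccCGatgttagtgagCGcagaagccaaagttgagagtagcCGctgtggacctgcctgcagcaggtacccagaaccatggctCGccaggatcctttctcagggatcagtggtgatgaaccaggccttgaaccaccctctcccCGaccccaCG
Fcrla (chr1:170927048-170927347): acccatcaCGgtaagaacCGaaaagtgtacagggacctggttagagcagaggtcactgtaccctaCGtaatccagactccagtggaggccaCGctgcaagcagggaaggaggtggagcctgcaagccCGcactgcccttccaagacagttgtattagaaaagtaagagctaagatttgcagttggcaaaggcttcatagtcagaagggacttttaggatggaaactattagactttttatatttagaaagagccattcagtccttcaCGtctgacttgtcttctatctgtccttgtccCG
Cd22 (chr7:30879545-30879844): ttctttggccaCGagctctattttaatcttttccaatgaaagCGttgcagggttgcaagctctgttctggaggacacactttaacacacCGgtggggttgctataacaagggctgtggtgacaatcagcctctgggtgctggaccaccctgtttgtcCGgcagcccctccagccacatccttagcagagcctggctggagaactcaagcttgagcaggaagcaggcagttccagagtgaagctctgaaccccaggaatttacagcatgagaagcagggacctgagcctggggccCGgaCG
The capitals are few, 5 to 7 CpGs in 300 bases, in contrast to the dense CpGs of a CpG island. Over the 5 CpGs of the Ms4a1 stretch the level was 1.27% in female and 0% in male B cells, against 96.4% in female and 96.2% in male T cells. No single CpG of that stretch was above 2.38% in pooled B cells or below 91.4% in pooled T cells. In the Tcf3 stretch pooled B cells reached at most 3.03% at any CpG and pooled T cells were at 86.3% or more. In the Fcrla stretch the single CpGs ran from 2.13% to 17.9% in B cells and from 86.9% to 98.2% in T cells. The Cd79a stretch was less even in T cells, from 60.7% to 100% between its 7 CpGs, with B cells at 11.5% or less. Stretches further down the order were less clean, and that of Spib, not shown, was at 19.6% and 10.7% in B cells and at 84.4% and 92.6% in T cells, with single CpGs of pooled B cells up to 34.6%.

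The label was checked at promoters of marker genes, taken as the start of the whole annotated gene with 1 kb to either side. Lower and higher mean a difference of any size here. Of 9 B cell markers, 9 were lower in both B cell files than in both T cell files. Their medians were 10.7% and 15.3% in B cells of females and males against 66.2% and 64.4% in T cells. The gap was narrowest at Cr2, which was low in all 4 files, at 10.7% and 8.35% in B cells and 13.5% and 14.4% in T cells. Of 9 T cell markers, 8 were higher in both B cell files and 1 was lower, Cd28, a costimulatory receptor gene, with 90.1% and 90.7% in B cells while T cells had 94.0% and 93.4%. Of 7 myeloid markers 3 were lower in both B cell files (Lyz2, Adgre1 and Csf1r) and 0 were higher. Lyz2, the lysozyme gene, had the widest of these gaps in the female files, at 41.5% and 50.7% in B cells while T cells had 64.1% and 66.7%, and its part in the windows below was not tested. Of 4 NK cell markers 2 were higher in both B cell files and 0 lower, of 4 plasma cell markers 0 were either, and of 4 erythroid markers 1 was higher and 1 lower. The autosomes held 278275973 to 339923001 CpG reads per file, or 14.6 to 17.7 reads per CpG.

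Where a pair of values is given for a cell type, the female file comes first. B-only windows had medians of 15.2% in female B cells, 15.5% in male B cells, 89.2% in female T cells and 87.8% in male T cells. Median depths were 138, 157, 169.5 and 171 reads per window in the same order. Reads of a window or stretch are summed over its CpGs, so a read that covers several CpGs is counted at each. The B cell depth was 0.869 times the T cell depth in the median window, against 0.887 over all eligible windows. The rule is set on the pooled level of these same CpGs, so most had to fall on its side of 50%. Of 5053 CpGs in the 504 windows, 4404 (87.2%) were under 50% in pooled B cells and 4865 (96.3%) were at 50% or more in pooled T cells. In 162 windows (32.1%) every CpG was under 50% in B cells.

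The low stretch in B cells was measured from the first to the last CpG of a window under 50% in pooled B cells, CpGs between them included, and then outwards for as long as the next CpG stayed under 50%. A single higher CpG at an edge thus ends it, and a window with its low CpGs close together gives a short one, down to 25 bases. The stretch had a median width of 773 bases (quartiles 455.75 and 1161) and a median of 11 CpGs. It was 1 kb or less at 338 windows (67.1%) and over 2 kb at 36. Only B cell levels set its bounds. T cells in the stretches had medians of 87.3% and 86.6% in females and males, but the lowest values were 5.24% and 6.47%. Some stretches thus ran on into sequence low in T cells too. Female B cells rose from 15% within 500 bases of the window centre to 55.6% at 500 to 1000 bases, 64.1% at 1 to 2 kb and 73.6% at 5 to 10 kb. Male B cells gave 14.8%, 54.0%, 62.8% and 72.4% at the same distances. The rule asks for high T cell levels in the window itself, where these were 87.7% in both sexes, and they were 75.5% and 75.4% at 5 to 10 kb in females and males.

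**Figure D1:**
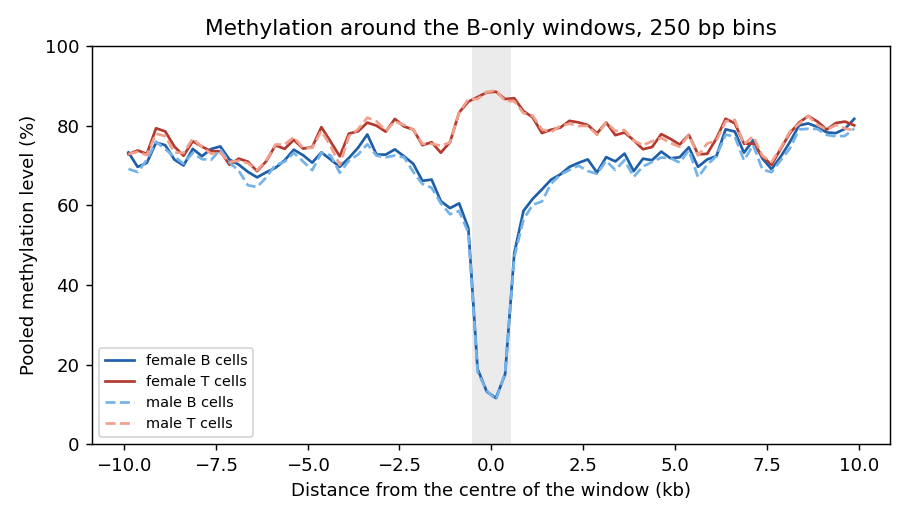
Pooled methylation level in percent (y axis) by distance from the window centre in kb (x axis), in bins of 250 bases over the B-only windows, with 1 line per file and the window shaded. The windows were chosen for low B cell and high T cell levels inside the shaded part, and the B cell lines climb back towards the T cell lines within a few kb on both sides.

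Of the tiles that touched a B-only window, 904 were eligible and were no members, so that the rule did not choose them. Of these, 437 (48.3%) were at or above 75% in all 4 files, against 81.8% of all eligible windows. Another 419 (46.3%) were in none of the classes of level and lower, by any amount, in B cells than in T cells in both sexes, against 5.20% of all eligible windows. Low in all 4 files were 19 (2.10%), against 1.81% of all. The median level of the 904 was 76.4% and 75.6% in B cells of females and males, and 93.0% and 92.9% in T cells. No test was run on these shares. A window low in all 4 files touched 19 of the 504 B-only windows (3.77%) and 52 of the T-only windows (5.23%).

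B-only windows were CpG-poor beside the windows low in all 4 files and slightly richer than windows at large. They held a median of 10 CpGs of the genome (quartiles 7 and 13), against 8 over all eligible windows, 9 in T-only windows and 38 in windows low in all 4 files. Median GC content was 45.8%, against 42.7% over all, 44.2% in T-only and 53.7% in the windows low in all files. The ratio of observed to expected CpGs had a median of 0.186, against 0.179 over all and 0.546 in the windows low in all files. With a GC content of 50% or more and a ratio of 0.6 or more as the marks of an island, 1 B-only window (0.198%) met both. Among the windows low in all files 38.1% met them. Repeats covered a median of 17.3% of the bases, against 23.1% over all eligible windows.

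At the upper end of CpG density, 37 B-only windows (7.34%) held 20 or more CpGs of the genome, against 6.42% over all eligible windows. By CpGs with reads in all 4 files, a measure that leaves out some windows rich in uncovered CpGs, the richest was in Zdhhc7, which encodes a palmitoyltransferase (chr8:120082001-120083000, 38 covered CpGs, centre in an annotated exon). It stood at 20.3% and 22.0% in B cells of females and males over 637 and 745 reads, and at 97.3% and 96.4% in T cells over 819 and 772 reads. The next, with 37 CpGs, lay in an intron of Pold1, a DNA polymerase subunit gene, 1430 bases before the start of Spib (chr7:44533001-44534000). It stood at 15.7% and 19.5% in B cells of females and males and at 97.4% and 96.2% in T cells. The window 24282 bases before Ifnar2, an interferon receptor gene (chr16:91348001-91349000, 26 CpGs), had 13.3% and 9.52% in B cells and 92.5% and 91.9% in T cells. Those at Pitpnm2 and Katnal1 held 24 CpGs each, as did one in the noncoding gene Gm11476 near Snai1, and 23 were held by those near Matn4 and in Cenps. The latter number was tied with windows in Hpse and Gm45349. Over these 8 windows B cells ran from 1.44% to 23.3% and T cells from 80.6% to 97.4%.

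Most B-only windows were far from promoters. The median distance from a window centre to the nearest protein-coding start was 21708.5 bases (quartiles 7321.5 and 56105.2), against 47603 over all eligible windows, 18117 in T-only windows and 686 in windows low in all files. Within 1 kb of a start lay 23 windows, 4.56% (95% Wilson interval 3.06% to 6.75%, which treats windows as independent), against 2.92% of all eligible windows and 59.3% of those low in all files. A further 72 (14.3%) lay at 1 to 5 kb, 146 (29.0%) at 5 to 20 kb and 124 (24.6%) at 20 to 50 kb. Beyond 100 kb were 69 (13.7%), against 34.8% of all eligible windows. The centre fell in an intron at 297 windows (58.9%, interval 54.6% to 63.1%) and between genes at 163 (32.3%), against 45.9% and 48.3% over all eligible windows. It fell in a UTR or coding exon at 35 (6.94%, against 3.52%). Most lay downstream of the nearest start, 58.1% against 54.0% of all eligible windows and 69.6% of T-only windows. These shares carry no test, since windows of 1 locus are not independent.

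**Figure D2:**
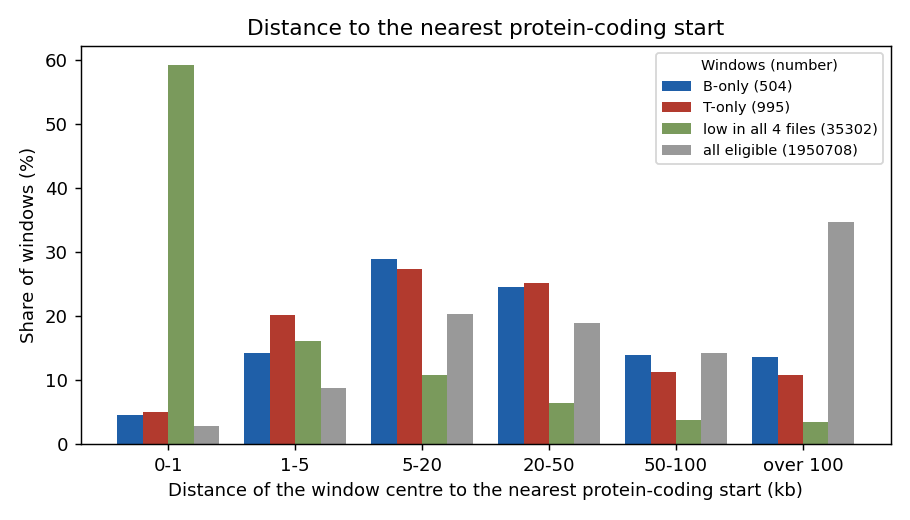
Share of windows in percent (y axis) by distance from the window centre to the nearest protein-coding start in kb (x axis), for B-only, T-only and low windows and all eligible windows, with the number of windows in the legend. B-only windows are most frequent at 5 to 20 kb (29.0%), while 59.3% of the windows low in all 4 files lie within 1 kb.

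Near a start lay 23 windows. At 9 of them (39.1%) the nearest gene was in the lists of B cell genes used here, against 0.663% of the 56973 eligible windows near a start. The lists were chosen with earlier results known, so no test was run. The 9 came from the lists of the receptor with its coreceptors (among them Ms4a1, Cd79a, Cd22 and Fcrla), its signalling (Blnk, Inpp5d) and transcription factors (Tcf3, Spib). Ms4a1 had the lowest B cell levels of these (chr19:11266001-11267000, 8 CpGs, centre 260 bases before the start). It gave 0.752% of 133 reads in female B cells (Wilson interval 0.133% to 4.14%) and 0 of 216 reads in male B cells, which allows a level of up to 1.39%. Both limits take the counts at neighbouring CpGs as independent and are too narrow where they share reads. T cells there were at 93.4% and 92.4%. The window at a start of Tcf3 (chr10:80430001-80431000, 11 CpGs, centre 484 bases downstream of it) was at 2.56% and 4.76% in B cells of females and males and at 86.3% and 87.5% in T cells. The window at the start of Cd79a held more CpGs (chr7:24897001-24898000, 22 CpGs, centre 120 bases downstream). Its levels were 2.70% and 3.70% in B cells of females and males and 83.5% and 82.1% in T cells.

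Cd22 stood at 9.04% and 4.05% in B cells while T cells had 82.4% and 79.8%, and Blnk at 7.27% and 6.34% against 89.7% and 91.5%. Spib, which encodes an ETS factor of the PU.1 subfamily, had 15.2% and 8.97% in B cells of females and males against 83.2% and 92.6% in T cells, the widest gap between the sexes' T cells among the 9. Inpp5d, which encodes a phosphatase that dampens receptor signalling, had the narrowest gap between cell types of the 9, with 20% and 24% in B cells and 83.8% and 82.2% in T cells.

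The other windows near a start included further genes known from B cells. Vpreb1 and Igll1 encode the surrogate light chain of the pre-B cell receptor, which is made by B cell precursors. Their windows stood at 18.3% and 22.3% at Igll1 (chr16:16863001-16864000) in females and males and 23.6% and 21.5% at Vpreb1 (chr16:16869001-16870000), in B cells, against 89.4% to 97.7% in T cells. Vpreb3 lay at 9.77% and 17% in B cells of females and males and 88.5% and 84.9% in T cells. Fcmr, the Fc receptor for IgM, had 14.5% and 11.9% in B cells and 90.1% and 89.2% in T cells. Prkcd, a protein kinase C gene, had 20% and 23.1% against 93.6% and 92.1%. At Cenps, which encodes a centromere protein, 23 CpGs were covered and the level was 2.95% of 305 reads and 1.44% of 416 reads in B cells of females and males, against 93.8% and 92.7% in T cells (chr4:149132001-149133000). The other windows near a start were at Flrt1, BC004004, Iqsec1, Hdac9, Tnnt2, Zfp106, St3gal6 and Gm5431, where B cells ran from 4.30% to 25% and T cells from 76.9% to 93.9%.

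**Figure D3:**
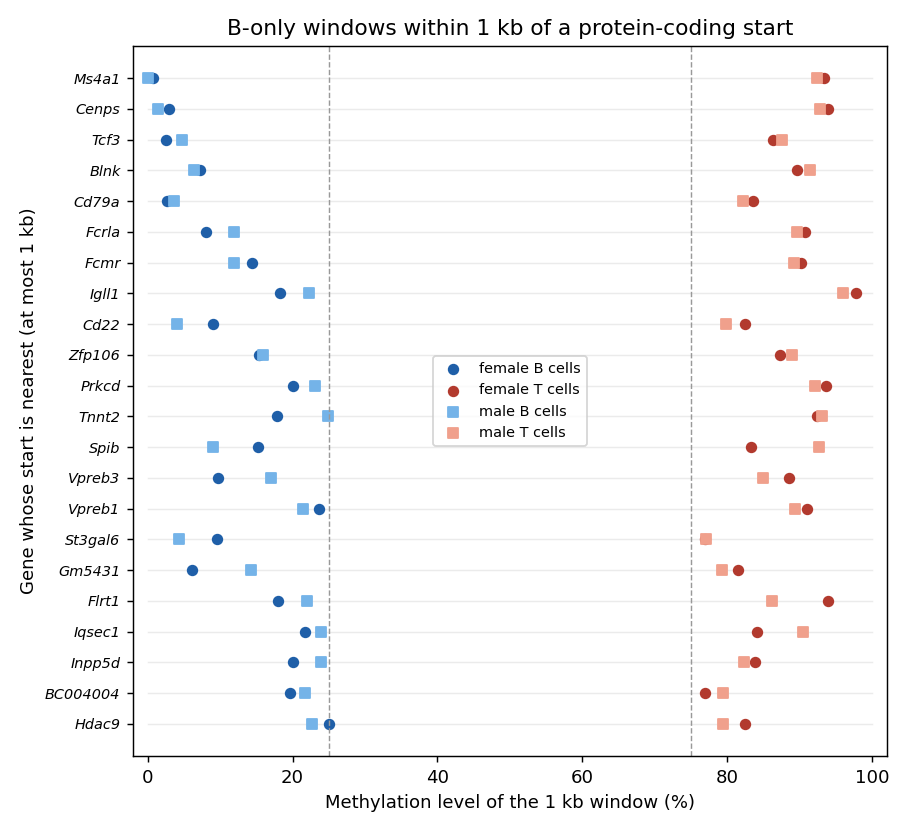
Methylation level in percent (x axis) of 22 of the 23 B-only windows within 1 kb of a protein-coding start, 1 row per gene (y axis), with 1 point per file and dashed lines at the limits of 25% and 75% that chose the windows. Ms4a1 and Cenps lie at the top, with B cells at 2.95% or less and T cells at 92.4% or more.

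B-only windows were next counted by gene, in lists that were chosen with earlier results of these data known and are therefore described without a test. With a gene taken as its body and 10 kb to either side, 369 of 20680 measured protein-coding genes (1.78%) held at least 1. In the list of the B cell receptor and its coreceptors 6 of 14 genes did (42.9%), among them Cd79b with 4 windows, Cd79a with 2, and Cd22, Ms4a1 and Fcrla with 1 each. In the list of receptor signalling 4 of 20 did (20%), Blnk with 2 windows and Vav2, Rasgrp3 and Inpp5d with 1. In the list of B lineage transcription factors 6 of 24 did (25%), Spib and Irf8 with 3 windows and Pax5, Tcf3, Pou2f2 and Pou2af1 with 1. Several lists of genes at work in B cells held none, with 0 of 11 MHC class II genes, 0 of 10 genes of BAFF and TNF receptors and 0 of 11 Toll-like receptor genes. At the 1.78% over all genes, lists this short would mostly hold none, so a count of 0 says little. The lists of homing receptors and of germinal centre and plasma cells held 1 gene each, Cd9 and Rgs13. Of 25 T cell receptor and lineage genes 0 held a B-only window and 18 (72.0%) held a T-only window, against 2.93% of all measured genes, and of 16 myeloid genes 0 held a B-only window. The counts of 0 B-only windows in these lists likewise say little. Among B lineage factors Ikzf1, Bach2 and Nfkb1 held only T-only windows, 4, 1 and 1 of them, as did Syk with 1. Long genes offer more windows, and genes with a B-only window had a median length of 55.5 kb against 17.8 kb over all measured genes. Genes of the receptor list were short, with a median of 11.3 kb. Those of the lists of receptor signalling and of B lineage transcription factors were long, with medians of 65.6 and 35.7 kb.

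Away from starts, transcription factor genes carried B-only windows in introns and flanks. Irf8, a factor of B and myeloid cells, held the pair chr8:120746001-120748000 inside its introns, 7862 and 8862 bases from its nearest annotated start. The first stood at 13.5% and 11.9% in B cells of females and males and 94.4% in both T cell files, and the second at 6.34% and 5.92% against 92.0% in both. Another lay outside the body of Irf8, 18862 bases from its nearest annotated start (chr8:120757001-120758000), at 12.4% and 12.8% against 97.1% and 93.5%. Pax5, the factor that holds B cell identity, had 1 window inside the gene (chr4:44671001-44672000), at 12.3% and 9.55% in B cells of females and males and 81.7% and 79.1% in T cells. Another 6 lay beyond its body, 141.5 to 256.5 kb away, 4 of them inside the neighbouring gene Zcchc7. Of these the window chr4:44906001-44907000 had 7.14% and 6.13% in B cells and 83.5% and 80.8% in T cells. The promoter of Pax5 itself was low in all 4 files, at 4.44% and 5.24% in B cells and 19.6% and 20.6% in T cells. In all, 7 of the 1110 eligible windows in Pax5 or within 500 kb of it were B-only (0.631%). Ebf1 had 0 windows in its body and 6 within 500 kb of it, at 136.3 to 445.9 kb and all outside protein-coding genes, among 1257 eligible windows (0.477%). These genes were picked after the windows were seen, so the shares are not set against the 0.0258% over all. The 6 windows near Ebf1 include the pair chr11:45323001-45325000. Its first kb was at 6.33% and 0% of 118 reads in B cells of females and males and at 85.8% and 76.4% in T cells. The 0 allows up to 2.54% if the counts at its CpGs are independent, and more if they share reads.

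Pou2af1, the coactivator of octamer factors, had a window 2207 bases before its start (chr9:51211001-51212000) at 23.2% and 15.4% in B cells of females and males and 79.3% and 79.4% in T cells. Pou2f2, an octamer factor gene, had one 1976 bases downstream (chr7:25130001-25131000) at 21.3% and 19.6% against 79.7% and 75.3%. Rasgrp3, an exchange factor for Ras, had one in an intron at 8.05% and 15.5% against 94.3% and 93.5%. Further windows had such genes as their nearest start at long range. They lay 62485 and 66485 bases before Lmo2, 70303 before Bach2, 27725 before Irf4, 34762 after the start of Hhex and 200165 and 365165 after that of Foxo1. A window 25785 bases before Cr2, the complement receptor, stood at 11.8% of 34 reads and 15.2% of 46 reads in B cells of females and males and at 94.9% and 98.1% in T cells. One 11624 bases before Cxcr5, the follicle homing receptor, stood at 17% and 7.14% against 92.3% and 94.2%. These last windows were picked from the nearest starts after their values were seen, and a nearest start does not show which gene an element serves.

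B-only windows were mostly lone. When members whose starts were within 5 kb were joined, 84 of the 504 (16.7%, interval 13.7% to 20.2%) fell into runs, against 31.6% of T-only windows and 73.5% of windows low in all files. The 504 windows formed 459 loci, of which 39 held 2 or more windows, 34 with 2, 4 with 3 and 1 with 4. T-only windows formed 773 loci with 92 runs, the longest of 23 windows. A B-only window touched another in 9.33% of cases and a T-only window touched another in 22.3%. A larger set has more possible neighbours, and the sets held 504 B-only, 995 T-only and 35302 windows low in all files. The shares were not adjusted for this, so they do not show that B-only windows cluster less.

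The longest run lay past the end of Cd79b, which encodes the partner of Cd79a in the B cell receptor (chr11:106307001-106311000, 4 windows, between Cd79b and the growth hormone gene Gh). Its windows began 3762 bases downstream of the Cd79b start. In the 4 windows female B cells were at 7.63%, 22.0%, 9.88% and 21.7% going away from Cd79b, and male B cells at 6.82%, 14.9%, 10.9% and 22.5%. Female T cells were at 92.3%, 94.7%, 81.8% and 90.9%, and male T cells at 95.1%, 97.2%, 78.6% and 81.6%. The promoter of Cd79b was no B-only window because T cells were partly unmethylated there, at 35.9% in females and 45.8% in males, while B cells had 8.19% and 9.91%.

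**Figure D4:**
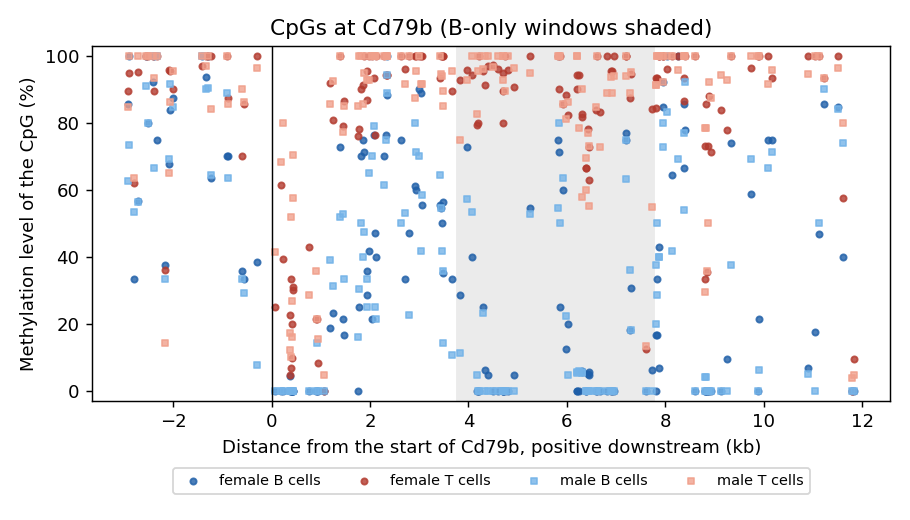
Methylation level in percent (y axis) of each CpG with reads in all 4 files by distance from the start of Cd79b in kb (x axis, positive downstream), with 1 point per file and the 4 B-only windows shaded. In the shaded stretch most B cell points lie near 0% and most T cell points above 60%, while just after the start the T cell points lie lower.

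The other runs of 3 windows had different settings. At Spib the run crossed the start (chr7:44529001-44534000) and took in the CpG-rich window of Pold1 named above and another in an exon of Spib, at 20.8% and 22.7% in B cells of females and males and 92.2% and 91.3% in T cells. At Chst3, a chondroitin sulfotransferase gene, it lay in an intron (chr10:60213001-60218000), with the lowest levels in the middle window at 6.59% and 1.83% against 88.9% and 88.3%. At Scd1, a fatty acid desaturase gene, it lay 24208 to 30208 bases downstream of the start (chr19:44377001-44384000), between genes, with B cells from 4.62% to 23.8% and T cells from 79.5% to 93.3%. At Bcl11a, a zinc finger factor needed for B cell development, it lay 175831 to 177831 bases from the start (chr11:24256001-24259000), with B cells from 11.3% to 23.7% and T cells from 82.3% to 95.2%.

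The genes with the most members included very long gene models. Gm20388, a gene model of 4435 kb that spans many genes including Irf8 and Zdhhc7, held 8, and Fgfr2, whose model spans 2961 kb, held 4. Zcchc7 beside Pax5 held 5 over 176.3 kb. Gh and Cd79b held the same 4 windows. Among the genes with 3 each, the shortest were Spib, Vpreb3, Pold1, Irf8 and Gm867, of 2.95 to 20.3 kb, and others such as Mtss1 (140.8 kb) were longer. Spib and Pold1 held the same 3 windows, as did Vpreb3 and Gm867, and those of Irf8 are among the 8 of Gm20388. Of 369 genes with a B-only window, 57 held 2 or more. T-only windows lay in 27 of the 369, which is 7.32% of these and 4.46% of the genes with a T-only window. Over all 20680 measured genes 606 (2.93%) held a T-only window, and the genes with a B-only window were longer, as given above. By chromosome the share of eligible windows that were B-only ran from 0.0138% on chromosome 18 to 0.0425% on chromosome 11.

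The largest differences between cell types were not at the best known B cell genes alone. Ranked by whichever sex had the smaller difference, the first was 51645 bases before Myl10, a myosin light chain gene (chr5:136641001-136642000, 3 CpGs), at 0% of 44 reads and 1.85% of 54 reads in B cells of females and males and at 94.2% of 69 reads and 100% of 43 reads in T cells. With so few reads, 0 of 44 allows a level of up to 6.82%, and more where a read was counted at several of the 3 CpGs. Ms4a1 and Cenps were the only 2 of the first 8 within 1 kb of a protein-coding start. Cyth1, a gene for a guanine nucleotide exchange factor, had an intron window with 8 CpGs (chr11:118156001-118157000) at 3.37% and 1.77% in B cells of females and males and 94.6% and 95.8% in T cells. A window in an exon of the noncoding gene 1700027J07Rik (chr10:43746001-43747000, 9 CpGs), 155244 bases from a coding start, had 4.03% and 3.73% against 95.9% and 95.4%. Windows in introns of Memo1, Rtf1 and the noncoding gene Gm41335 made up the 8, with B cells from 0% to 4.92% and T cells from 95.2% to 98.4%.

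The rearranging immunoglobulin loci, where B cells delete DNA as they join gene segments, held 3 B-only windows among 3287 eligible ones (0.0913%). The count is too small to set against the 0.0258% over all windows. In the heavy chain locus the window chr12:113428001-113429000 was at 4.00% of 75 reads and 3.95% of 76 reads in B cells of females and males, and at 88.9% of 144 reads and 85.9% of 142 reads in T cells. Its B cell depth was 0.528 times the T cell depth, the part of which in the level was not tested. In the kappa light chain locus chr6:68736001-68737000 was at 0% in both B cell files, over 34 and 38 reads, and at 100% and 81.2% in T cells over 30 and 32 reads. The other kappa window (chr6:68926001-68927000) was at 18.8% and 22.5% against 76.5% and 79.1%. The B cell depth was 1.16 and 0.935 times the T cell depth at these 2. The lambda locus held 0. Each locus was taken from its first to its last annotated segment. The B-only window chr16:19027001-19028000 lay outside the lambda bounds of chr16:19061618-19260859. The window chr12:113228001-113229000 lay outside the heavy chain bound at 113254830, and neither was counted.

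Sequence was not used to choose the windows. The letters searched, however, were chosen with earlier results of these data known, so their shares are described without a test. Among them 1 set stood out. The letters CCCNNGGG, the core of the site of EBF1 and the same on both strands, occurred in 217 of 504 B-only windows (43.1%). They occurred in 14.1% of T-only windows and 16.3% of all eligible windows, and in 41.3% of the CpG-rich windows low in all files. Among windows of like GC content, between the quartiles of the B-only windows, the letters were in 41.2% of 257 B-only windows and in 19.1% of 807414 eligible windows. By position, they were in 40.4% of B-only windows in introns, against 17.2% of eligible windows in introns, and in 46.6% between genes, against 14.6%. Within 1 kb of a protein-coding start the shares were 34.8% of 23 windows and 32.1%. Of 23 windows named above for their size of difference, CpG number or a listed start, 14 held the letters. Windows rich in CpGs or near a start hold them often at large, so the 14 is not set against the shares above. Examples follow in 40 bases on the plus strand of GRCm38, outside UTRs, with the matching 8 letters in capitals.
Ms4a1 (chr19:11266263-11266302): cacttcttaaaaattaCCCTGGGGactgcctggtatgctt
Tcf3 (chr10:80430001-80430040): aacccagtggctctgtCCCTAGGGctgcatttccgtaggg
Cd22 (chr7:30879053-30879092): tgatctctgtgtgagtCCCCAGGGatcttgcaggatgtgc
Myl10 (chr5:136641390-136641429): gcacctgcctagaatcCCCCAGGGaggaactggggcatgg
1700027J07Rik (chr10:43746469-43746508): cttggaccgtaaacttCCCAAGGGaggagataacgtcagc
Cyth1 (chr11:118156940-118156979): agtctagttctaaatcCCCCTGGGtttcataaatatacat
Ifnar2 (chr16:91348243-91348282): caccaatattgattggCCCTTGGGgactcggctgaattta
Pitpnm2 (chr5:124219601-124219640): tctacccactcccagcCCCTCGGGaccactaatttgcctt
These lie in the windows at Ms4a1, Tcf3 and Cd22 starts, those named for the largest difference and those with many CpGs. In the window upstream of Myl10 the letters occurred 4 times, in near copies of 1 short repeat.

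Other letters differed less. Each was searched on both strands. The octamer ATGCAAAT, bound by octamer factors, was in 11.5% of B-only windows, 4.12% of T-only windows and 7.80% of all eligible windows. The E-box CAGGTG, a letter set of E proteins, was in 62.9%, 55.3% and 48.1%. The letters GGAANNGAA, a composite of PU.1 and IRF sites, were in 34.3%, 26.2% and 28.5%. The NF-kB letters GGGANTTTC were in 5.75%, 3.02% and 3.55%, and the CTCF core AGGGGGC in 12.3%, 10.1% and 8.46%. PU.1 letters GAGGAAGT were in 8.13%, 6.03% and 6.03%, and the ETS letters AGGAAGT, which they contain, in 26.0%, 24.7% and 22.2%. The MEF2 letters TATTTATA were in 10.9%, 8.64% and 11.3%. Among windows of like GC content the MEF2 order turned, with 10.5% of B-only and 7.94% of eligible windows. The E-box gap narrowed there, to 61.9% and 53.9%, and the octamer gap widened, to 11.7% and 6.07%. The other letters kept the side they had, with NF-kB in 6.61% and 3.87%, PU.1 in 9.73% and 6.87%, ETS in 28.4% and 23.7%, the composite in 34.2% and 29.6%, CTCF in 11.3% and 9.68%, RUNX in 27.2% and 22.3%, GATA in 2.72% and 4.52%, and TCF and LEF in 3.11% and 3.91%. Letters of factors known from T cells were more frequent in T-only windows, with TGTGGTT of RUNX factors in 25.6% of B-only, 33.5% of T-only and 21.7% of all eligible windows, AGATAAGA of GATA factors in 3.17%, 7.24% and 4.98%, and CTTTGATC of TCF and LEF in 2.98%, 8.14% and 3.94%. A match is a description of the sequence and does not show that a factor binds there.

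**Figure D5:**
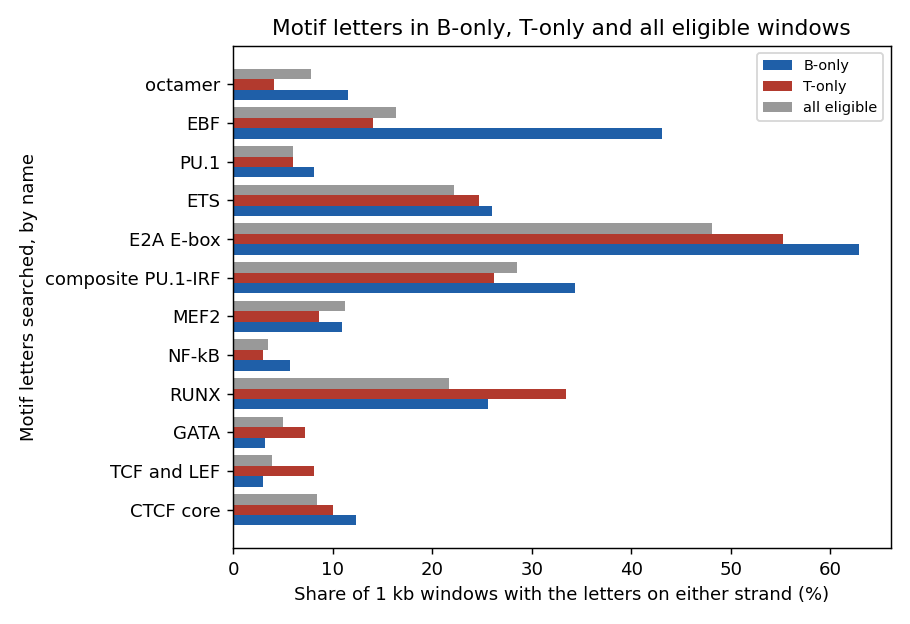
Share of 1 kb windows in percent (x axis) that hold each set of motif letters on either strand (y axis), for B-only, T-only and all eligible windows. The EBF letters have the widest gap between B-only windows (43.1%) and all eligible windows (16.3%).

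By the rule, the sexes could differ by at most 25 points within a cell type. The female minus male difference had a median of 0.119 points in B cells, with a range from -14.2 to 14.9, and of 0.131 points in T cells, with a range from -15.4 to 18.8. It was 10 points or more either way at 26 windows in B cells and at 11 in T cells. In a quasi-binomial model with terms for cell type and sex and 1 residual degree of freedom, dispersion moderated with limma's squeezeVar, 0 of the 504 windows were called for sex (Benjamini-Hochberg adjusted p under 0.05 over all 1950708 windows and a mean difference of 20 points or more), against 20 windows (0.00103%) over all. With levels held within these limits, a mean difference of 20 points was close to unreachable and the 0 says little. At an unadjusted p under 0.05 the model gave 27 of the 504 (5.36%), against 4.74% of all eligible windows. With a prior from all windows it gave 21, and with 10 or more reads per CpG 20 of 452. Without the term for cell type it gave 0. There the gap that chose the windows counts as residual spread, which left the 0 close to fixed. At that level limma on log2 ratios gave 16. Fisher's exact test gave 1, but it had to pass in B and in T cells alike. That is a stricter demand than a single fit, so its 1 is not comparable with the other counts. The smallest adjusted p of a B-only window in the quasi-binomial model as first described was 0.55, at a window nearest to Fam49b (chr15:64046001-64047000). There B cells were at 12.6% in females and 21.8% in males, and T cells at 90.1% and 94.6%. In that model's alternatives with the cell type term, the smallest adjusted p ranged from 0.443, with 10 or more reads per CpG, to 0.973, with a prior from all windows. Whether the sex difference itself differed between B and T cells could not be tested with 4 files.

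The limits of the rule cut through a continuum. Just inside 25% were windows near Dennd1b, Gm11084 and Ncoa3, each with 1 B cell file at 25%. Just outside were windows near Txnrd3 (25.1% in female B cells), Ly86 (25.2% in male B cells) and Cd79a (25.2% in female B cells), the last being the tile that follows the 2 Cd79a members (chr7:24899001-24900000). Just inside 75% were windows near Grhpr and Frmpd2, each with female T cells at 75%. Just outside were windows near Ttc7b, Nxt1 and Mbp, with male T cells at 74.9%, 74.8% and 74.8%.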

How the data were processed

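Per the submitters' processing notes, reads were handled with Trim Galore, FastQC and Bismark 0.13.1 on mm10; duplicate removal and conversion rates are not given in the sources used here. Per the labels, some DNA of every sample was also oxidized; the 4 files carry the names of bisulfite libraries without oxidation. Each file deposited by the authors gave the methylation level of every CpG as a fraction and its coverage, a count of reads, for CpGs with 5 or more reads. Methylated reads were recovered as fraction times count, rounded, and positions were checked on GRCm38. Windows were tiles of 1 kb from position 0, with 3 or more such CpGs in all 4 files, and their level was methylated over all reads. The members, gene lists and motif letters were chosen with earlier results of these data known. Genes, starts and exons came from GENCODE M21, a start being that of any protein-coding transcript, with soft-masked bases as repeats. Windows were named by size of difference, CpG number, length of run, nearness to a start, members per gene and distance from the limits, and a few more by nearest start after their values were seen; 1 gene is not reported here. For sex, a quasi-binomial model (cell type and sex terms) was fitted to all windows in Python 3.11.15 with limma 3.58.1 in R 4.3.3. It was checked on simulated data, in which only windows of intermediate level in all 4 files were given a sex difference. Whether the model finds a difference at levels like those of B-only windows was not checked. Intervals are Wilson intervals and, like the limit of 3 counts for a count of 0, cover counting error only. Those of levels take the counts at the CpGs of a window as independent. They are too narrow where a read covers several CpGs.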

Additional observations from a re-analysis of the deposited data

How the results depend on the processing

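The number of B-only windows and the shares near a start, in introns and in runs were recomputed under alternatives. The limit on depth, which removed no member, is left aside. Of 59 alternative values 45 stayed within 1.5 times the count or within the interval of the share, and 14 moved. The 45 include values with a file left out or from either sex alone. Those settings only drop a condition of the rule, so each such set holds every B-only window. Their counts could only rise and their shares rest largely on the same windows, so staying the same says little there. The number of B-only windows was 241 with limits of 20% and 80%, 910 with 30% and 70%, 1779 with tiles of 500 bases, 84 with tiles of 2 kb and 767 from the male files alone, and it ran from 566 to 672 when 1 file was left out. The share within 1 kb of a start was 8.33% with tiles of 2 kb and 10.9% with the starts of all annotated transcripts, and from 4.06% to 4.91% with 1 file left out. The intron share ran from 57.9% to 60.0% with 1 file left out. The share in runs was 10.8% at 20% and 80%, 20.7% at 30% and 70%, 11.5% with tiles from position 500, 28.4% with tiles of 500 bases, 9.52% with tiles of 2 kb, 9.33% for adjacent tiles only and 23% for members within 20 kb, and from 17.1% to 18.2% with 1 file left out. Chosen after seeing the data, the limits of 20% and 80% left 4 receptor genes with a window, 30% and 70% gave 7, and gene bodies alone gave 4, against 6. The count of B-only windows called for sex was 0 under each alternative that gave a test. This held also with a threshold of 10 points, where the smallest adjusted p of a B-only window in the quasi-binomial model was 0.55. With 1 residual degree of freedom and adjustment over all windows, the 0 says little. Without the term for cell type it was close to fixed by the rule. Leaving out a file left no residual degree of freedom. No paired analysis was possible because each group had a single file and replicate numbers were not shared between groups. With 1 file per group, the spread between pools of animals is unknown, so counting error is the only error given.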

Other observations

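The X chromosome was outside the rule, since it differs in copy number and in inactivation between the sexes. Of 67612 eligible X windows, 1 met the same limits as the autosomal B-only windows (0.00148%), and 1 met those of the T-only windows. The B-only one lay 29170 bases from the start of Cask, a scaffold kinase gene (chrX:13588001-13589000, 4 CpGs). It stood at 22.9% of 35 reads in female B cells and 0 of 26 reads in male B cells, against 98.1% of 54 reads and 96.8% of 31 reads in female and male T cells.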
